A study of Mus musculus with 24 samples.

Results

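The 9 genes described here, Tfap2a, Tfap2b, Foxd3, Snai2, Twist1, Pax3, Ets1, Ngfr and Erbb3, are genes by which the neural crest is commonly recognised. They were chosen by name, as the entries of the deposited expression table that carry one of these symbols, with earlier results of these data known. All 9 were found, in 1 entry each, among 23119 genes listed. Of these, 7 reached a mean of 1 FPKM (fragments counted per kilobase of transcript and scaled to the mapped fragments of the library) over the 24 libraries and were tested together with 12105 genes in all. Tfap2b and Snai2 lay under that mean and are described by their levels. Tfap2a reached it only through the mutant cells, with a mean of 0.575 FPKM over the 12 wild-type libraries and 2.72 FPKM over the 12 mutant libraries.

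The neural crest is a transient population of the vertebrate embryo that arises at the border between neural plate and surface ectoderm, leaves the dorsal neural tube through an epithelial-to-mesenchymal transition and migrates to form peripheral neurons, glia, melanocytes and much of the facial skeleton. Border genes (Pax3, the AP-2 factors Tfap2a and Tfap2b) come first, specifiers and transition factors (Foxd3, Snai2, Twist1, Ets1) follow, and migrating cells carry surface receptors such as the neurotrophin receptor Ngfr and the neuregulin receptor Erbb3. None of these genes belongs to the crest alone. Foxd3 also acts in pluripotent cells, Pax3 in the dorsal neural tube and in somites, Twist1 and Ets1 in mesoderm.

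Poly(A) RNA was sequenced from JB4/EI7HZ2 cells, female mouse embryonic stem cells (mESCs) of a hybrid JF1 and B6 background, and from a SmcHD1-mutant line (KO) that was made out of them with CRISPR–Cas9. SmcHD1 is a chromatin protein that acts on the inactive X chromosome, and the study sequenced RNA to compare both genotypes at 4 stages with 3 libraries each, 24 in all. The mESCs grew in serum with 2i/LIF, and day 7 and day 9 cells were early neurectoderm from aggregates formed after an epiblast-like step. Neural stem cells (NSCs) were derived through a separate protocol of plated culture, aggregates and outgrowth, so that NSCs compared with day 9 are no time course. G418 and Zeocin selected for 2 X chromosomes in the mESC and NSC media of both genotypes. WT and KO are 1 line each, so genotype and line cannot be told apart.

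Smchd1 itself measured 13.0 to 26.4 FPKM in the WT libraries and 1.82 to 4.40 FPKM in the KO libraries, without overlap. Relative read number ranged from 0.811 to 1.15 of the median library, and pairs of libraries of a group correlated at 0.955 or more (Pearson r of log2 values). The 5 pluripotency markers followed summed to between 2333 and 2857 FPKM in mESCs and to at most 6.61 FPKM in NSCs. The 5 neural stem cell markers summed to 5093 to 6613 FPKM in WT NSCs and 3484 to 4352 FPKM in KO NSCs, without overlap. The defining crest gene Sox10 stayed at or under 1.64 FPKM in the mESC, day 7 and day 9 libraries. Measured per bulk sample, fewer cells of a type and less RNA per cell cannot be told apart. A gene is called changed below where the adjusted p of limma (Benjamini-Hochberg over 12105 genes) is under 0.05, and a log2 difference is a difference of log2(FPKM + 1).

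In mm9 coordinates, the border genes lay at chr1:78097842-78193711 (Pax3), chr13:40811044-40829192 (Tfap2a) and chr1:19198995-19228815 (Tfap2b). The specifiers and transition factors lay at chr4:99322990-99325362 (Foxd3), chr16:14705952-14709475 (Snai2), chr12:34642536-34644696 (Twist1) and chr9:32503627-32565405 (Ets1). The receptors lay at chr11:95430140-95449012 (Ngfr) and chr10:128006424-128026557 (Erbb3). No locus overlapped another entry of the table. Because Pax3, Tfap2a and Tfap2b were all higher in KO cells at day 9, the 250 bases before their gene starts are shown, from chr1:78193712-78193961 (minus strand), chr13:40829193-40829442 (minus strand) and chr1:19198745-19198994 (plus strand) of NCBIM37, the genome of mm9. Erbb3 is shown from chr10:128026558-128026807 (minus strand) because it was the 1 of 9 with an AP-2 palindrome, set in capitals. Each runs 5′ to 3′ in the direction of transcription, and the gene start is the outermost one of the deposited locus.
Pax3: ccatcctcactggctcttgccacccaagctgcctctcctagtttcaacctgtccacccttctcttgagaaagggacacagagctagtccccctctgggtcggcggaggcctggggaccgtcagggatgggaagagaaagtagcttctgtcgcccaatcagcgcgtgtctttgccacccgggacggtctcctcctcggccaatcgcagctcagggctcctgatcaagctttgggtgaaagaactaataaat
Tfap2a: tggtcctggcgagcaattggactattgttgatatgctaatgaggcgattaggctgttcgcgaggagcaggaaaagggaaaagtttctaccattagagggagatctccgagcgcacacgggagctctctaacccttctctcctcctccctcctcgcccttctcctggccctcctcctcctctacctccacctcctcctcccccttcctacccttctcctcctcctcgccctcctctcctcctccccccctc
Tfap2b: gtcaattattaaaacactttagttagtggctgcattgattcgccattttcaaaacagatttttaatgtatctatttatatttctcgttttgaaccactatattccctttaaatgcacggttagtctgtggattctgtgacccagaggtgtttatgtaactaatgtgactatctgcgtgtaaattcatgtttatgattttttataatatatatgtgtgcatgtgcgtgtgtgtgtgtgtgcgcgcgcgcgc
Erbb3: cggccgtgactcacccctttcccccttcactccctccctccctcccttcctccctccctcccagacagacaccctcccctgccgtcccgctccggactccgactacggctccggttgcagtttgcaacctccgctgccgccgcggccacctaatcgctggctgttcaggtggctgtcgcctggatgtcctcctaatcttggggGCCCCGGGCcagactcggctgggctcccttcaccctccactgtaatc

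Both strands were searched for the AP-2 palindrome GCCNNNGGC, the Snail-type E-box CAGGTG and the ETS site CCGGAAG. The palindrome occurred in 1 of the 9 members and in 16.6% of the 18978 autosomal upstream regions of the same length. The E-box occurred in 1 of 9 as well, again Erbb3 and at other bases than the palindrome, against 16.5% of all. The ETS site occurred in 0 of 9, against 9.63% of all. These letters were therefore absent from the windows of Pax3, Tfap2a and Tfap2b, which says nothing of sites elsewhere. G and C made up between 36.0% (Tfap2b) and 72.8% (Ets1) of the member windows, with a median of 56.4% over all regions.

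The 9 genes did not form a block that was high in one stage. Foxd3 and Erbb3 were highest in mESCs and fell with differentiation, Twist1 and Ets1 rose, Ngfr was high in mESCs and again at day 9, and Snai2 stayed at 10 reads or fewer in every library. Against this background the KO cells differed from WT most at day 9, when Pax3, Tfap2a and Tfap2b were 9.36 to 11.6 times as high as in WT by their means (without WT replicate 1, 32.6 times for Pax3 and 15.9 times for Tfap2b) while Ngfr and Ets1 were lower. The Ets1 call was lost in 6 of 12 alternatives. In NSCs Tfap2a alone of the 7 tested differed.

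**Figure D1:**
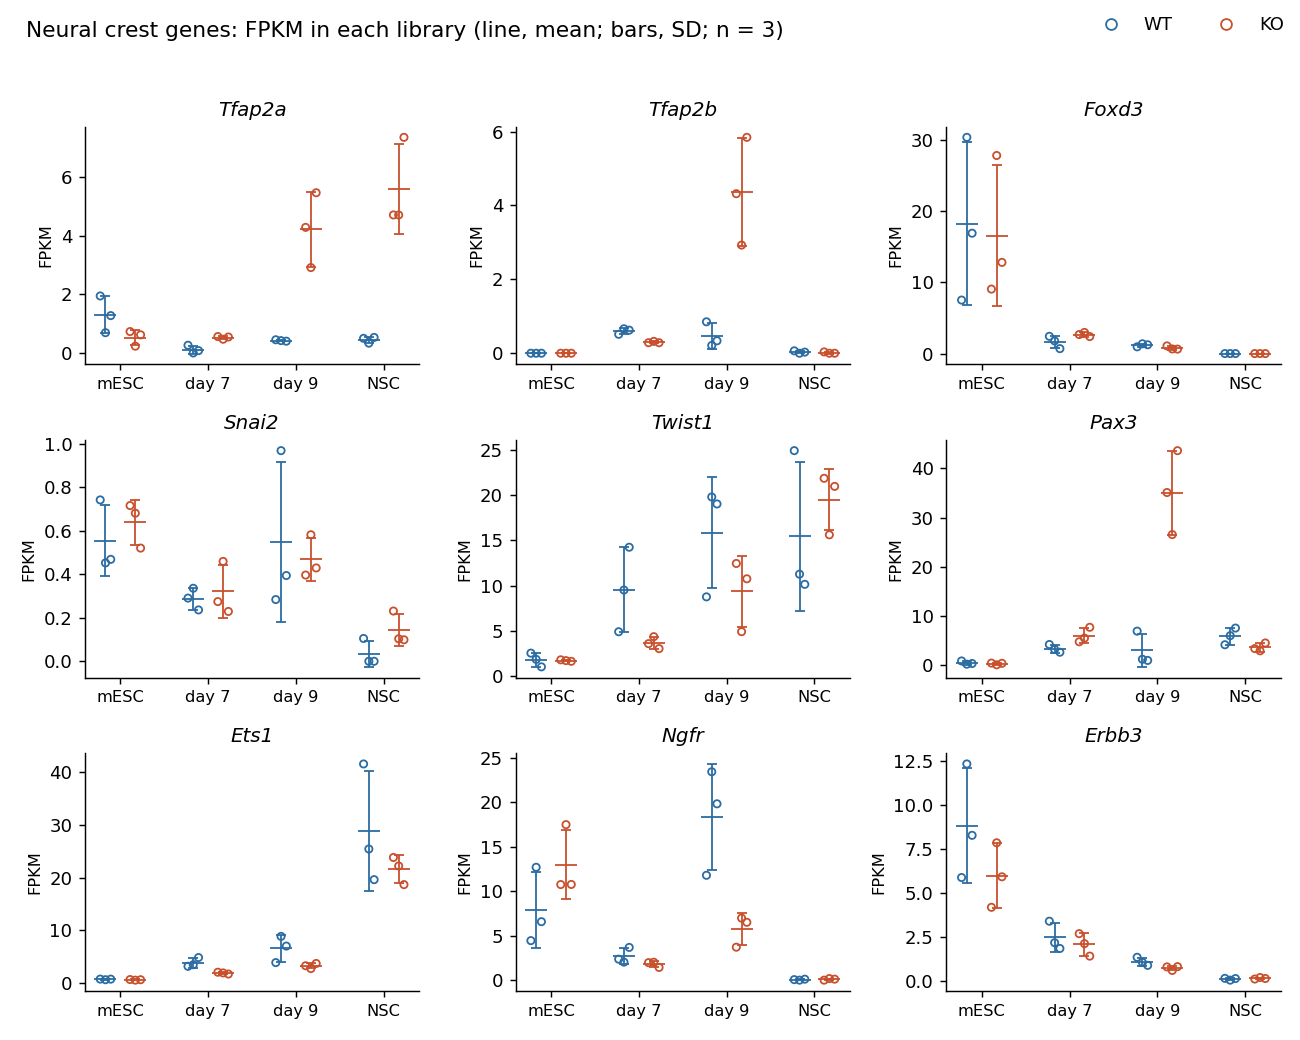
FPKM of the 9 genes in each of the 24 libraries, by stage (x axis) and genotype (blue, WT; orange, KO), with a separate linear scale for each gene; circles are libraries, horizontal lines means and bars SD of 3 libraries. Tfap2a, Tfap2b and Pax3 are far above WT in the 3 KO day 9 libraries, where the lowest are 2.92, 2.93 and 26.6 FPKM, and Tfap2a stays above WT in KO NSCs.

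Pax3, a paired-box factor of the neural plate border and dorsal neural tube, was near the bottom of the scale in mESCs, at 0.849, 0.194 and 0.334 FPKM in the WT libraries and 0.413, 0.0647 and 0.371 FPKM in the KO libraries. At day 7 it measured 4.20, 3.20 and 2.62 FPKM in WT and 4.75, 5.50 and 7.70 FPKM in KO. All KO libraries lay above all WT libraries there, but the log2 difference of 0.68 ± 0.36 (SE) did not pass (adjusted p = 0.437). At day 9 the WT libraries held 6.91, 1.20 and 0.956 FPKM and the KO libraries 35.1, 26.6 and 43.6 FPKM, so that the lowest KO value was several times the highest WT value. The means were 3.02 ± 3.37 (SD, n = 3) and 35.1 ± 8.53 FPKM, an 11.6-fold difference, with a log2 difference of 3.45 ± 0.36 (SE; adjusted p = 1.43e-06). In the KO day 9 cells Pax3 was above 86.0% of the 18156 genes with any signal, and in WT day 9 cells above 45.0%. In NSCs the WT libraries had 4.15, 5.99 and 7.54 FPKM and KO libraries 3.36, 2.91 and 4.51 FPKM, which overlap, with a log2 difference of -0.57 ± 0.36 (adjusted p = 0.458).

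The rise of Pax3 with differentiation therefore had a different shape in each genotype. In WT cells it rose from mESCs to day 7 (log2 difference 1.58, adjusted p = 0.000754), and the WT NSC mean was the highest of the WT groups. The WT day 9 value rests on replicate 1, the library with 6.91 FPKM: the log2 difference to mESCs was 1.18 (adjusted p = 0.00618) with it and 0.53 (adjusted p = 0.07) without it. With all libraries kept, that call was also lost when only the compared groups were fitted (adjusted p = 0.0668). In KO cells Pax3 rose by day 7 (2.43, adjusted p = 5.56e-06), rose again to day 9 (2.37 against day 7, adjusted p = 4.33e-05) and was lower in NSCs than at day 9 (-2.96, adjusted p = 4.12e-07). The KO effect at day 9 exceeded that in mESCs by 3.62 ± 0.51 on the log2 scale (adjusted p = 0.000194).

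Tfap2a encodes AP-2 alpha, a factor of non-neural ectoderm, border and crest. It was low in all WT groups. In mESCs the libraries held 1.95, 0.693 and 1.28 FPKM in WT and 0.731, 0.232 and 0.620 FPKM in KO, which overlap. KO was below WT at each replicate number there, without passing (adjusted p = 0.382). At day 7 the WT libraries held 0.264, 0 and 0.0804 FPKM and the KO libraries 0.561, 0.469 and 0.546 FPKM. These do not overlap, but both lie under 1 FPKM, and the log2 difference of 0.46 did not pass (adjusted p = 0.308). At day 9 WT stood at 0.451, 0.422 and 0.403 FPKM and KO at 4.29, 2.92 and 5.47 FPKM, and in NSCs WT stood at 0.500, 0.336 and 0.531 FPKM and KO at 4.72, 4.72 and 7.37 FPKM. Every KO library of both stages was above every WT library of the experiment. The means differed 9.95-fold at day 9 (0.425 ± 0.0243 against 4.23 ± 1.28 FPKM) and 12.3-fold in NSCs (0.455 ± 0.105 against 5.60 ± 1.53 FPKM). The log2 differences were 1.85 ± 0.21 (adjusted p = 3e-06) and 2.16 ± 0.21 (adjusted p = 8.98e-07). Unlike Pax3, Tfap2a did not differ detectably between KO NSCs and KO day 9 cells (log2 difference 0.34, adjusted p = 0.16). The KO effect exceeded that in mESCs by 2.42 ± 0.29 at day 9 (adjusted p = 3.62e-05) and by 2.73 ± 0.29 in NSCs (adjusted p = 2.14e-05).

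In WT cells Tfap2a went the other way with differentiation. It was lower than in mESCs at day 7 (log2 difference -1.02, adjusted p = 0.000231), at day 9 (-0.66, adjusted p = 0.00723) and in NSCs (-0.63, adjusted p = 0.00898). Without WT mESC replicate 1 the adjusted p at day 9 and in NSCs was 0.0594 and 0.073, and the NSC call was also lost when libraries were scaled to the same sum (-0.43, adjusted p = 0.0755). In KO cells day 7 was level with mESCs (log2 difference 0.01, adjusted p = 0.966), and day 9 (1.76, adjusted p = 1.24e-07) and NSCs (2.102, adjusted p = 5.53e-09) were higher.

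Tfap2b, which encodes the related AP-2 beta, was listed at 0 in all 6 mESC libraries. At day 7 it measured 0.512, 0.662 and 0.625 FPKM in WT and 0.285, 0.322 and 0.284 FPKM in KO, with every KO library below every WT library. At day 9 the order was turned: WT had 0.850, 0.211 and 0.336 FPKM and KO had 4.32, 2.93 and 5.84 FPKM, a 9.36-fold difference of means. The exact two-sided permutation test of 3 against 3 libraries gave p = 0.1 at day 7 and at day 9, the smallest it can give. With the filter on low values lifted, limma gave a log2 difference of -0.30 ± 0.15 at day 7 (adjusted p = 0.4) and 1.86 ± 0.15 at day 9 (adjusted p = 4.47e-08). In NSCs Tfap2b was at or under 0.0652 FPKM in all 6 libraries, so it did not follow Tfap2a there.

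Foxd3, a forkhead repressor of early crest that also acts in pluripotent cells, was highest in mESCs. Its libraries held 7.52, 30.4 and 16.9 FPKM in WT and 9.06, 27.8 and 12.8 FPKM in KO, and replicate 2 was highest in both genotypes. At day 7 it measured 2.42, 1.77 and 0.690 FPKM in WT and 2.67, 2.97 and 2.39 FPKM in KO, and at day 9 0.947, 1.37 and 1.23 FPKM in WT and 1.08, 0.647 and 0.627 FPKM in KO. The genotypes overlapped at each of these stages. In NSCs all 6 libraries had 0 reads of Foxd3. The values of this gene were whole multiples of the worth of 1 read, and counted that way the mESC libraries held 85 to 322 reads. Against a floor of 3 reads per library, 0.326 FPKM in the shallowest, Foxd3 was at least 56.1-fold lower in WT NSCs than in WT mESCs and at least 50.9-fold lower in KO. Without mESC replicate 2 these bounds were 37.5-fold and 33.6-fold. It had fallen already at day 7, by a log2 difference of -2.74 ± 0.36 in WT (adjusted p = 1.02e-06) and -2.11 ± 0.36 in KO (adjusted p = 2.63e-05). KO minus WT did not pass in any stage, with log2 differences of -0.09, 0.54, -0.30 and 0 from mESCs to NSCs.

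Snai2 (Slug), a zinc-finger repressor of the epithelial-to-mesenchymal transition, was barely read. Its range over the 24 libraries was 0 to 0.970 FPKM, and counted in whole reads 0 to 10. The highest library was WT day 9 replicate 2, with 10 reads, beside 3 and 4 in the other two. The genotypes overlapped at all 4 stages, with group means between 0.0350 FPKM in WT NSCs and 0.640 FPKM in KO mESCs, and a difference between genotypes was not detectable at this depth. With the filter on low values lifted, limma called Snai2 lower in NSCs than in mESCs in WT (-0.58 ± 0.12 SE on the log2 scale, adjusted p = 0.000341) and in KO (-0.52 ± 0.12, adjusted p = 0.00103), where the NSC libraries held 0 to 2 reads and the mESC libraries 4 to 7. Its relative Snai1 measured 1.02 to 6.80 FPKM in the mESC, day 7 and day 9 libraries and is described with the lists.

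Twist1, a bHLH factor of cranial crest mesenchyme and of mesoderm, rose with differentiation. In mESCs it held 2.55, 1.87 and 1.04 FPKM in WT and 1.82, 1.73 and 1.65 FPKM in KO. At day 7 the WT libraries had 4.91, 9.51 and 14.2 FPKM and the KO libraries 3.60, 4.37 and 3.05 FPKM, all under the lowest WT value. The log2 difference of -1.08 ± 0.37 did not pass over all libraries (adjusted p = 0.13) and passed without WT day 7 replicate 1, the lowest of the WT libraries (-1.45, adjusted p = 0.03). At day 9 the genotypes overlapped, at 8.76, 19.8 and 19.0 FPKM in WT and 12.4, 4.92 and 10.8 FPKM in KO, as they did in NSCs, at 24.9, 11.3 and 10.1 FPKM in WT and 21.8, 15.6 and 20.9 FPKM in KO. Neither difference passed (adjusted p = 0.346 and 0.642). Against mESCs, WT cells were higher at day 7 (log2 difference 1.84, adjusted p = 0.000246), day 9 (2.54, adjusted p = 3.7e-06) and as NSCs (2.47, adjusted p = 4.24e-06). In KO cells day 7 did not pass (0.77, adjusted p = 0.0785) but did in 3 of 12 alternatives (0.0393 with a pseudocount of 0.1, 0.0334 scaled to the same sum, 0.00145 in a fit of the compared groups only), and day 9 (1.84, adjusted p = 0.000161) and NSCs (2.89, adjusted p = 4.73e-07) did.

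Ets1, an ETS-family factor of cranial crest, endothelium and lymphoid cells, rose most of all members towards NSCs. It lay between 0.550 and 0.751 FPKM in the 6 mESC libraries. At day 7 it measured 3.18, 3.48 and 4.84 FPKM in WT and 2.05, 1.93 and 1.71 FPKM in KO, and at day 9 3.88, 8.86 and 7.02 FPKM in WT and 3.28, 2.75 and 3.72 FPKM in KO. KO libraries lay below WT libraries at both stages. The mean was 2.02-fold higher in WT at day 7 (log2 difference KO minus WT -0.72 ± 0.23, adjusted p = 0.0848) and 2.03-fold higher at day 9 (-0.78 ± 0.23, adjusted p = 0.0372). The day 9 call was lost in 6 of 12 alternatives, among them without WT replicate 2 (adjusted p = 0.279) or replicate 3 (0.15) and without KO replicate 1 (0.11), 2 (0.146) or 3 (0.0574). In NSCs Ets1 stood at 41.6, 25.5 and 19.6 FPKM in WT and 23.8, 22.2 and 18.7 FPKM in KO, which overlap (adjusted p = 0.48). Compared with mESCs of the same genotype, NSCs were higher by 4.06 ± 0.23 on the log2 scale in WT (adjusted p = 4.1e-13) and by 3.80 ± 0.23 in KO (adjusted p = 1.24e-12).

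Ngfr, the p75 neurotrophin receptor used to sort migrating crest cells, had 2 peaks in WT cells. In mESCs it measured 4.44, 12.7 and 6.57 FPKM in WT and 10.7, 17.5 and 10.8 FPKM in KO, and at day 7 2.36, 2.03 and 3.68 FPKM in WT and 1.97, 2.01 and 1.43 FPKM in KO. The genotypes overlapped in mESCs, where KO was above WT at each replicate number without passing (adjusted p = 0.462). At day 7 the KO libraries lay just under the WT libraries, also without passing (adjusted p = 0.652). At day 9 WT had 11.8, 23.4 and 19.8 FPKM and KO 3.70, 6.97 and 6.50 FPKM. The highest KO library was below the lowest WT library, the mean was 3.20-fold higher in WT (18.3 ± 5.95 against 5.72 ± 1.77 FPKM), and the log2 difference was -1.51 ± 0.29 (adjusted p = 0.0014). In NSCs all 6 libraries were at or under 0.176 FPKM, which is 3 reads. From day 7 to day 9 Ngfr rose in both genotypes, by 2.37 in WT (adjusted p = 1.53e-06) and by 1.23 in KO (adjusted p = 0.00253). The KO effect at day 9 minus that in mESCs was -2.24 ± 0.40 (adjusted p = 0.00218).

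Erbb3, the receptor through which neuregulin acts on crest-derived glia, was lower at day 7 than in mESCs and lower at day 9 than at day 7 in both genotypes, and lowest in NSCs. The WT call between day 9 and day 7 was lost without WT day 7 replicate 1 (adjusted p = 0.103) or WT day 9 replicate 3 (0.0664), and the KO call without KO day 7 replicate 1 (0.0542). The KO call between NSCs and day 9 was lost in 4 of 12 alternatives (adjusted p of 0.055 to 0.0665). Its mESC libraries held 5.88, 12.3 and 8.28 FPKM in WT and 4.19, 7.86 and 5.92 FPKM in KO, again with replicate 2 highest in both. KO was below WT at each replicate number there, without passing (adjusted p = 0.638). Means then went from 2.47 (WT) and 2.08 (KO) FPKM at day 7 to 1.10 and 0.737 FPKM at day 9 and to 0.112 and 0.149 FPKM in NSCs. At day 9 the KO libraries (0.799, 0.598 and 0.814 FPKM) lay below the WT libraries (1.35, 1.06 and 0.888 FPKM), but the log2 difference of -0.27 ± 0.22 did not pass (adjusted p = 0.629), nor did that of any other stage. Against mESCs the log2 difference in NSCs was -3.09 ± 0.22 in WT (adjusted p = 3.34e-11) and -2.57 ± 0.22 in KO (adjusted p = 6.68e-10). Its partner Erbb2 and its ligand gene Nrg1 stood at 11.3 to 13.6 FPKM and 2.70 to 6.99 FPKM in the day 9 libraries.

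**Figure D2:**
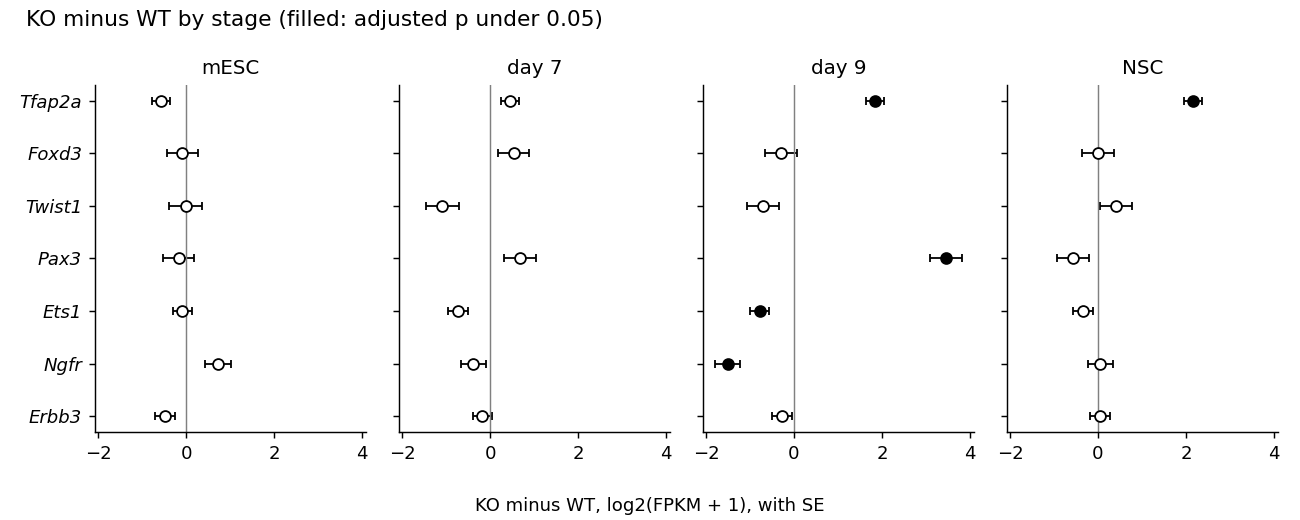
KO minus WT as the difference of log2(FPKM + 1) (x axis) for the 7 tested genes (y axis) in each stage; points are estimates over 3 against 3 libraries, bars SE, and filled points have an adjusted p under 0.05. No point is filled in mESCs and at day 7, 4 are filled at day 9 (Pax3 at 3.45, Tfap2a at 1.85, Ets1 at -0.78, Ngfr at -1.51) and 1 in NSCs (Tfap2a at 2.16).

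Counted over the set, KO minus WT was called for 0 of 7 tested members in mESCs, where 0.529% of all tested genes were called, and for 0 of 7 at day 7, where 3.68% were. At an unadjusted p under 0.05 there were 3 of 7 at each of these stages, against 7.66% and 13.9% of all genes. At day 9 it was 4 of 7, 2 higher and 2 lower in KO, against 6.68% of all genes, and in NSCs 1 of 7 against 6.02%. Of the lower calls at day 9, that of Ets1 was lost in 6 of 12 alternatives. Tfap2a is counted at day 9 and is the 1 in NSCs, and it had been admitted to the test only through KO, where it is high, so both counts rest in part on the difference they count. With a library left out, the share of all genes ranged from 0.165% (without KO replicate 3) to 0.925% (without WT replicate 2) in mESCs, from 2.26% (without WT replicate 2) to 4.3% at day 7, from 3.71% (without WT replicate 2) to 6.21% at day 9, and from 3.35% (without KO replicate 3) to 11.2% (without WT replicate 1) in NSCs. WT NSC replicate 1 correlated least with its group (r = 0.955 and 0.964). The median log2 difference of the 7 was -0.09, -0.17, -0.30 and 0.05 from mESCs to NSCs, and that of all tested genes was near 0 at each stage. At day 9 the called members thus went in both directions. The difference of KO effects against mESCs was called for 0 of 7 at day 7 (1.68% of all genes), 3 of 7 at day 9 (2.68%) and 1 of 7 in NSCs (2.26%). Tfap2a is again counted at day 9 and is the 1 in NSCs, so these counts too rest in part on its admission through KO. These contrasts share the mESC libraries. With a library left out, their shares of all genes ranged from 0.983% to 2.09% at day 7, 1.5% to 2.97% at day 9 and 1.21% to 5.01% (without WT NSC replicate 1) in NSCs. At an unadjusted p under 0.05 the day 7 contrast had 2 of 7, against 9.84% of all genes.

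In WT all 7 tested members differed from mESCs at day 7 (59.2% of all genes called), at day 9 (71.5%) and in NSCs (75.2%), 3 of 7 differed between day 9 and day 7 (33.8%), and 5 of 7 between NSCs and day 9 (55.1%). In KO the counts were 5 of 7 at day 7 (61.3%), 7 of 7 at day 9 (71.3%), 7 of 7 in NSCs (76%), 6 of 7 for day 9 against day 7 (30.6%) and 5 of 7 for NSCs against day 9 (59.6%). The 3 comparisons with mESCs within a genotype share the mESC libraries. The share of members called against mESCs is to be read beside these high shares of all genes. Directions were split: WT day 9 cells had 4 members above and 3 below WT mESCs.

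The genes expressed around the members were followed in lists of border genes, further specifiers, surface molecules of migrating crest, cranial crest mesenchyme, crest derivatives, and family members or partners. Neural plate border genes were higher in KO cells at day 9. All 5 tested of the 8 listed rose, with a median log2 difference of 2.69, where the median over all genes was 0. Zic1, a zinc-finger factor of border and dorsal neural tube, held 1.47, 2.73 and 2.95 FPKM in WT and 54.9, 23.4 and 40.1 FPKM in KO, with a log2 difference of 3.53 ± 0.25 (adjusted p = 3.94e-09). Pax7, the paralogue of Pax3, held 6.39, 0.904 and 0.877 FPKM in WT and 17.6, 15.0 and 25.4 FPKM in KO (2.74 ± 0.36, adjusted p = 3.08e-05), with WT replicate 1 highest of the WT libraries, as for Pax3. For Pax7 the adjusted p was 0.0579 when only the day 9 libraries were fitted. Msx2, Zic2 and Gbx2 were the other 3, and Msx2 had reached the mean for testing only through KO cells. Msx1, which was under that mean, stood at 0.396, 0.203 and 0.310 FPKM in WT and 4.78, 1.93 and 2.70 FPKM in KO. Dlx5 and Dlx6, which mark the non-neural side of the border, stayed at mean levels of at most 0.136 FPKM at day 9 in both genotypes.

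**Figure D3:**
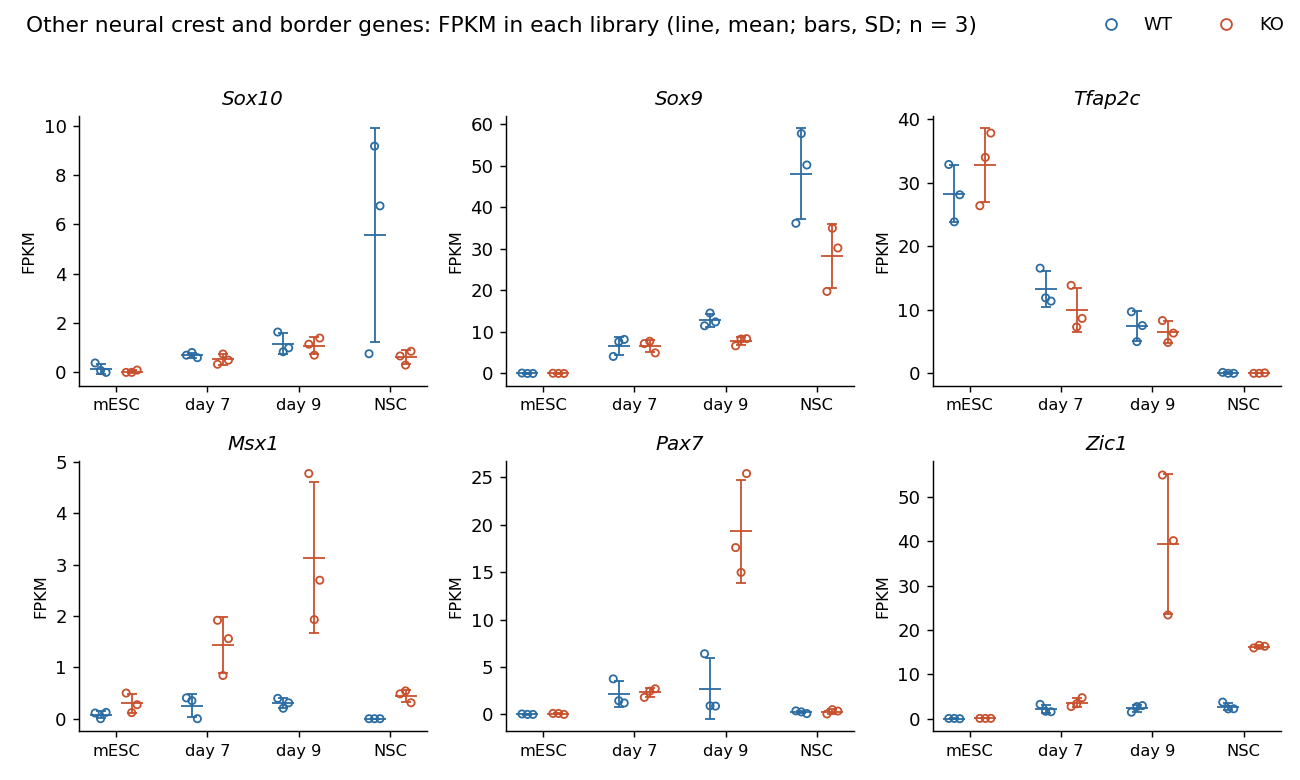
FPKM of Sox10, Sox9, Tfap2c, Msx1, Pax7 and Zic1 in each library by stage (x axis) and genotype (blue, WT; orange, KO), each on its own linear scale; circles are libraries, lines means and bars SD of 3 libraries. Msx1, Pax7 and Zic1 are above WT in all KO day 9 libraries, Sox10 overlaps between genotypes at day 9, and Tfap2c falls from mESCs to NSCs in both.

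Crest specifiers beyond the members did not share this pattern. Of 10 tested, 1 was higher (Sox8, adjusted p = 0.0156) and 1 lower (Lmo4, adjusted p = 0.0216) in KO at day 9, and the median was -0.10. Over the 12 alternatives each count was as low as 0, both of them with a pseudocount of 0.1, without WT replicate 2 and without KO replicate 1 or 3. Sox10, the factor that marks crest from its emigration on, held 1.64, 0.838 and 0.995 FPKM in WT and 1.14, 0.699 and 1.39 FPKM in KO at day 9, with a log2 difference of -0.05 (adjusted p = 0.981). Sox10 is also a gene of the oligodendrocyte lineage. In NSCs WT held 0.757, 9.17 and 6.75 FPKM and KO 0.667, 0.298 and 0.856 FPKM. WT replicate 1 lay among the KO values there. Sox10 had reached the mean for testing only through WT. The log2 difference of -1.70 ± 0.39 passed (adjusted p = 0.00915), but not without WT replicate 2 (-1.22, adjusted p = 0.0529) or WT replicate 3 (-1.41, adjusted p = 0.0609) or when only the NSC libraries were fitted (adjusted p = 0.354). Sox9 was lower in KO NSCs (-0.75, adjusted p = 0.042), at 36.1, 57.7 and 50.2 FPKM in WT and 19.7, 34.9 and 30.2 FPKM in KO. The count of lower specifiers in NSCs was 0 without WT replicate 2. Tfap2c, the AP-2 gene of early embryo and germ cells, went from 23.9 to 37.8 FPKM in mESCs to at most 0.148 FPKM in NSCs and differed between the genotypes in no stage (adjusted p of 0.453 or more). Snai1 was lower in KO at day 7 (-1.20 ± 0.32, adjusted p = 0.0315), and that call was lost in 6 of 12 alternatives, among them without any single one of the day 7 libraries except WT replicate 1.

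Surface molecules of migrating crest were lower in KO at day 9. Of 7 tested, 5 fell and 0 rose, with a median of -0.92, where 4.11% of all tested genes were called lower and 2.58% higher. These shares also stand beside the day 9 counts of the other lists. Nrp2 held 10.4, 20.4 and 16.9 FPKM in WT and 2.21, 3.55 and 2.17 FPKM in KO (-2.19 ± 0.24, adjusted p = 1.98e-06), and Nrp1 4.52, 9.60 and 8.83 FPKM in WT and 0.785, 1.38 and 1.26 FPKM in KO (-1.97 ± 0.27, adjusted p = 4e-05). Both are semaphorin and VEGF co-receptors, expressed also by vessels and neurons. The other 3 were Cdh6, Cdh11 and Ednra. The count was 3 of 7 with a pseudocount of 0.1, without WT replicate 2 or without WT replicate 3. These 5 went the way of Ngfr, the opposite way of the border genes.

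Of 10 tested genes of crest derivatives, 4 fell at day 9 in KO, among them Phox2a (-1.58, adjusted p = 7.76e-05), Ret (tested only through its WT level) and Neurog1, which hindbrain or cranial neurons also use. The count was 2 with a pseudocount of 0.1. Phox2a held 21.7, 36.7 and 37.4 FPKM in WT and 7.40, 8.74 and 14.1 FPKM in KO. The melanocyte gene Dct was at or under 0.174 FPKM in all libraries. In NSCs S100b, a glial gene, held 4.69, 17.4 and 26.5 FPKM in WT and 29.2, 27.3 and 56.5 FPKM in KO, without overlap (1.37 ± 0.35, adjusted p = 0.0226). The call was lost without WT replicate 1 (adjusted p = 0.0567) or KO replicate 3 (0.164), with a pseudocount of 0.1 (0.26) and when only the NSC libraries were fitted (0.429). Of the 8 cranial mesenchyme genes only Prrx1 and Prrx2 were tested. Prrx2 was higher in KO NSCs (1.33, adjusted p = 0.0394), a call lost in 5 of 12 alternatives, among them without KO replicate 3 (adjusted p = 0.253), and Prrx1 was called in no stage (day 9: -0.57, adjusted p = 0.152), but passed at day 9 without WT replicate 1 (-0.93, adjusted p = 0.00172). Tfap2e, a further AP-2 gene under the mean for testing, held 0.716, 0 and 0.0932 FPKM in WT and 1.97, 2.02 and 2.74 FPKM in KO at day 9, again without overlap. Among 14 tested family members and partners, 2 were higher and 1 lower in KO at day 9. Foxd1 fell (-2.34 ± 0.32, adjusted p = 3.5e-05). Ntrk2, the BDNF receptor, rose (1.34, adjusted p = 0.0155), a call lost in 5 of 12 alternatives, and the count of higher genes was 0 without WT replicate 2, WT replicate 3 or KO replicate 3.

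**Figure D4:**
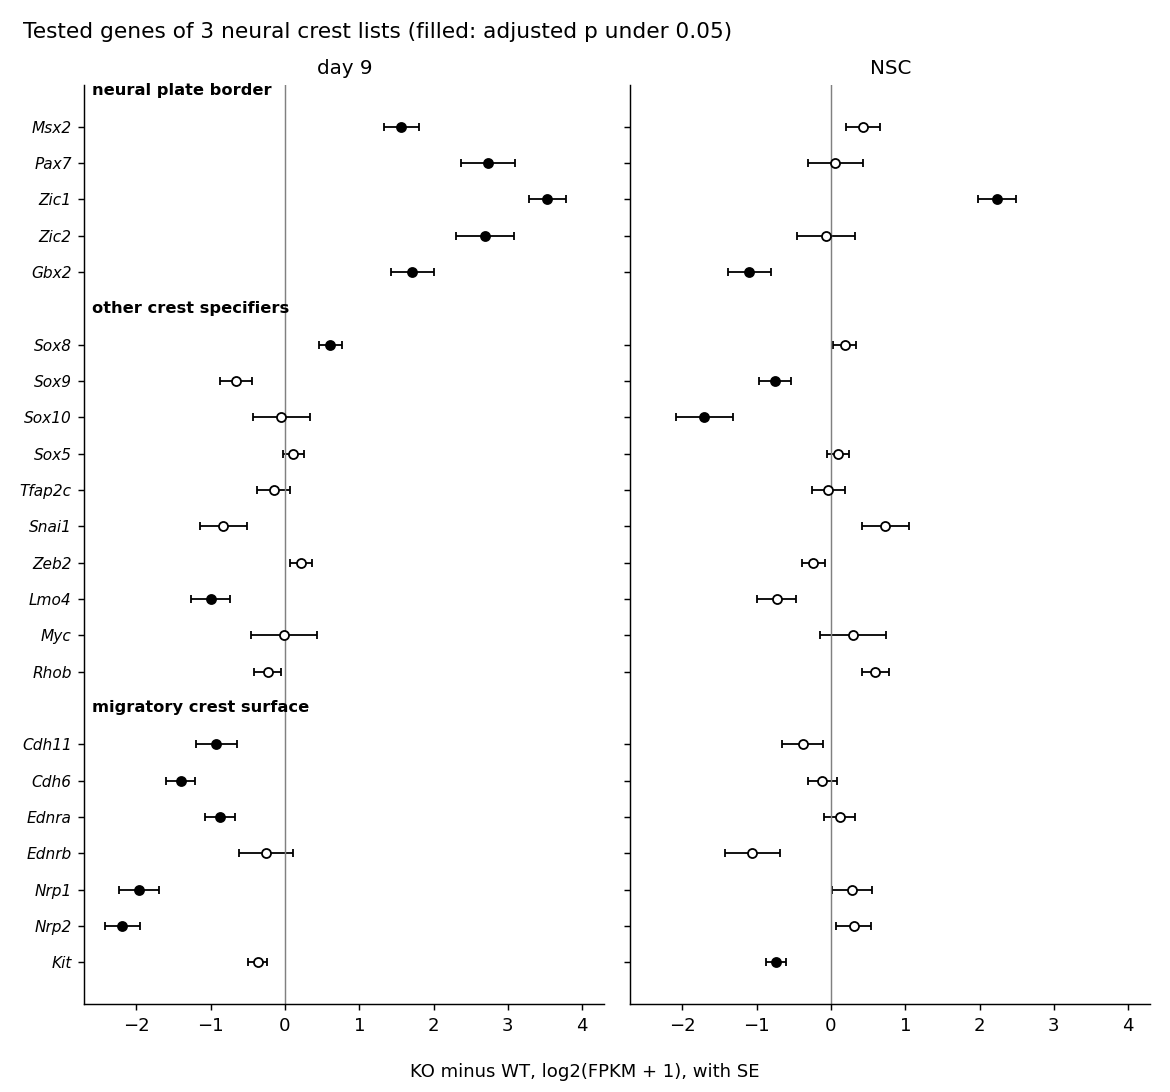
KO minus WT as the difference of log2(FPKM + 1) (x axis) at day 9 (left) and in NSCs (right) for the tested genes (y axis) of 3 lists; points are estimates over 3 against 3 libraries, bars SE, and filled points have an adjusted p under 0.05. At day 9 the 5 border genes are all to the right of 0 and 5 of 7 surface genes are filled to the left, and in NSCs Zic1 is the border gene filled on the right, at 2.23.

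In mESCs none of the 6 lists had a called gene between the genotypes, but 1 surface gene passed without WT replicate 1 and 1 derivative gene without WT replicate 2. At day 7 the lists had 1 specifier lower (Snai1), 2 surface genes lower (Ednra and Nrp1), 2 derivative genes lower (Ret among them) and 1 partner gene higher (Ntrk3), while 0 of the 5 border genes was called. Of all tested genes 1.18% were called higher and 2.5% lower at that stage. The border count was 1 without WT replicate 1, with the replicate block (Zic2 at 1.16, adjusted p = 0.00778, against 0.121 without it) and with no filter. The surface count was 1 without WT replicate 2, WT replicate 3 or any single KO library, and the derivative count was 1 without WT replicate 2, WT replicate 3 or KO replicate 1 and with a pseudocount of 0.1. Both were also 1 when only the day 7 libraries were fitted. In NSCs Zic1 was higher and Gbx2 lower among the border genes, 2 specifiers (Sox9 and Sox10), 1 surface gene (Kit) and 1 partner gene (Erbb2) were lower, and Prrx2 and S100b were higher, where 2.54% of all tested genes were called higher and 3.48% lower. When only the NSC libraries were fitted, the 6 lists had 1 call, a border gene higher in KO. With the replicate block the specifier Rhob was higher in NSCs as well (0.59, adjusted p = 0.00904, against 0.0576 without it). The Gbx2 call was lost without WT replicate 1 and without KO replicate 2 or 3.

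Markers of other cells that use the same genes moved at the same stages, and their part in the results was not tested. The 6 dorsal neural tube markers summed to 4.39 to 5.35 FPKM in WT and 37.7 to 67.0 FPKM in KO at day 9, with Msx3 at 4.25 on the log2 scale (adjusted p = 1.54e-10), and 2 of 3 tested rose. The 3 tested were selected in part by the difference itself, since Msx3 and Wnt1 reached the mean for testing only through KO and Lmx1a only through WT. At day 7 they summed to 3.66 to 7.48 FPKM in WT and 9.14 to 23.8 FPKM in KO, with 2 of 3 higher (Wnt1 at 3.00, adjusted p = 8.59e-06) and 1 lower. In NSCs the sum was at most 0.443 FPKM in either genotype, and Wnt3a and Atoh1 were at 0 in all 6 libraries, while Tfap2a remained higher in KO. The 6 mesoderm markers, beside which Twist1 and Ets1 are to be read, summed to 68.7 to 206 FPKM in WT and 8.30 to 9.94 FPKM in KO at day 7, with 4 of 4 tested lower (T at -5.26, adjusted p = 2.92e-07, and Meox1 at -3.47, adjusted p = 0.000725), and to 22.0 to 58.4 and 11.9 to 21.8 FPKM at day 9, with 3 of 4 lower. Meox1 and Foxc2 reached the mean for testing only through WT, and the Meox1 call at day 7 was lost when only the day 7 libraries were fitted (adjusted p = 0.094). Mesp1 was at 0 in all KO day 7 and day 9 libraries. The 7 endothelium and blood markers summed to 11.7 to 17.0 FPKM in WT and 5.995 to 9.21 FPKM in KO at day 7, and to 13.4 to 21.9 and 5.11 to 7.96 FPKM at day 9; Cdh5 was lower at day 7 (-1.23, adjusted p = 0.00168), and Pecam1 was not called (day 9: -0.40, adjusted p = 0.278). The X-linked Gata1 has no reads in a table from which reads of the X chromosome were removed, so the sums rest on the other 6.

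The AP-2 genes also serve surface ectoderm and placodes. Krt18 was the marker called in mESCs (-1.43, adjusted p = 0.00564; 0.0548 with the replicate block). There the 7 surface ectoderm markers summed to 87.3 to 104.5 FPKM in WT and, higher, 124.1 to 168.8 FPKM in KO. Epcam and Grhl3 of this list were tested as well. Their means over 12 libraries were 29.3 and 3.94 FPKM in WT and 42.2 and 5.17 FPKM in KO. The sum of the 7 surface ectoderm markers was 72.4 to 112 FPKM in KO and 165 to 232 FPKM in WT at day 9, with 2 of 4 tested lower at day 7 and at day 9 (day 7: Krt8 at -1.89, adjusted p = 3.6e-05, and Krt18 at -1.44, adjusted p = 0.000782, but 0.0836 in a fit of the day 7 libraries only), and Trp63 and Krt5 were at 0 in all KO day 9 libraries. In NSCs that sum was at most 0.531 FPKM in either genotype. The 4 placode markers summed to 14.8 to 17.9 FPKM in KO and 16.6 to 21.8 FPKM in WT at day 9, with 1 of 4 lower. In NSCs, where Tfap2a was higher in KO, they summed to 11.9 to 18.5 FPKM in KO and 3.84 to 7.85 FPKM in WT, and 3 of 4 rose (among them Eya2 at 1.30, adjusted p = 0.00286). The sum of the 5 oligodendrocyte precursor markers was 2.39 to 12.4 FPKM in KO and 25.4 to 45.2 FPKM in WT at day 9, with 2 of 5 lower (Nkx2-2 at -3.47, adjusted p = 7.79e-05, but 0.0958 in a fit of the day 9 libraries only); Olig2 was lower at day 7 too (-1.39, adjusted p = 0.0106), but not without WT replicate 3 (0.0886) or KO replicate 1 (0.0567). Of the neural stem cell markers, Pax6 was higher at day 9 (0.83, adjusted p = 0.0368), a call lost in 7 of 12 alternatives, among them without WT replicate 2 (0.259) or 3 (0.172) and without KO replicate 2 (0.138) or 3 (0.136). Vim was lower at day 7 (-0.71, adjusted p = 0.00946), but not without WT replicate 3 (0.0894) or KO replicate 1 (0.0727) or in a fit of the day 7 libraries only (0.0628). In NSCs Sox2 (-0.49, adjusted p = 0.0308) and Vim (-0.55, adjusted p = 0.0415) were lower, as was the precursor marker Cspg4 (-0.75, adjusted p = 0.018), which was tested only through its WT level. The 5 oligodendrocyte precursor markers summed to 1487 to 1502 FPKM in WT NSCs and 1640 to 1874 FPKM in KO NSCs, without overlap. Of the 5 pluripotency markers 0 was called in any stage. The furthest were Esrrb in NSCs (-0.71, adjusted p = 0.361) and Zfp42 at day 7 (-0.52, adjusted p = 0.117), which passed in 2 of 12 alternatives (0.0373 in a fit of the day 7 libraries only and 0.0474 with the replicate block).

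Across the 24 libraries the members fell into groups, given here as a description, since the points share 8 conditions. Foxd3 and Erbb3 were the closest pair (Pearson r of log2 values = 0.967), Twist1 and Ets1 followed (0.874), then Snai2 and Ngfr (0.822) and Tfap2b and Pax3 (0.809). Snai2 held at most 10 reads in a library, so its values of r rest on few reads. Tfap2a correlated at no more than 0.434 with any other member, reached with Pax3. Foxd3 and Twist1 were the most opposed among pairs with Foxd3 (-0.871), and Ets1 and Erbb3 were at -0.877. Over the 8 group means the same pairs had 0.975, 0.899, 0.947 and 0.822.

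**Figure D5:**
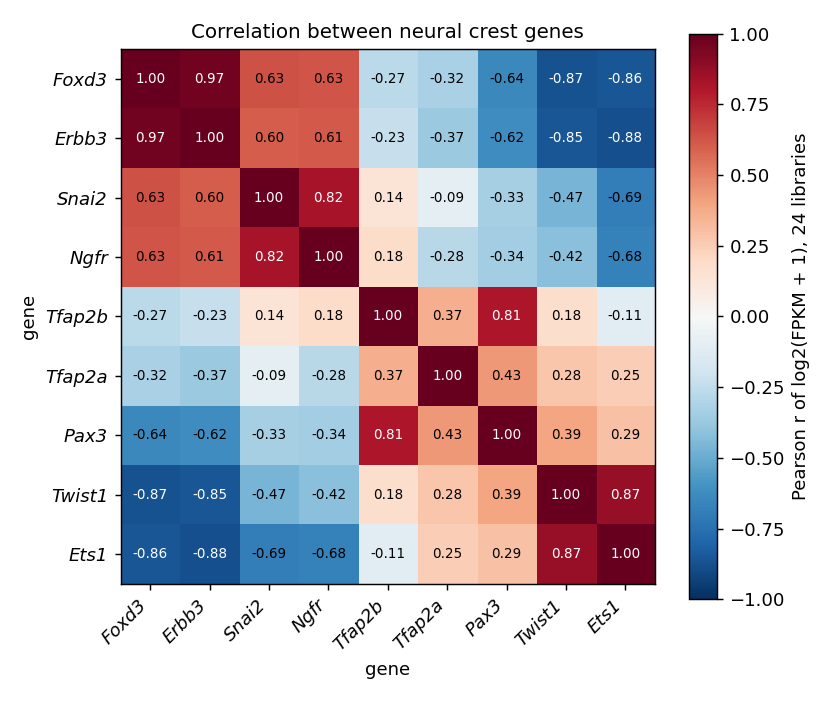
Pearson correlation of log2(FPKM + 1) over 24 libraries for each pair of the 9 genes (both axes list the genes; colour and number give r). Foxd3, Erbb3, Snai2 and Ngfr are positively correlated with each other at 0.605 or more, Twist1 and Ets1 at 0.874, and Tfap2b and Pax3 at 0.809. The values of Snai2 rest on at most 10 reads in a library.

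Among tested genes outside the set, those most like each member over the 24 libraries were Boc (r = 0.943) and Irx2 (0.922) for Pax3, Pisd-ps2 (0.846) and Trnp1 (0.832) for Tfap2a, Eif2b5 (0.977) and Fbxo42 (0.976) for Foxd3, Tgfb3 (0.940) and Rgs3 (0.938) for Twist1, Sema6d (0.983) and Adamts6 (0.978) for Ets1, Nefl (0.964) and 9030425E11Rik (0.949) for Ngfr, and Dppa2 (0.980) and Nup160 (0.980) for Erbb3. Boc is a hedgehog co-receptor and Dppa2 a pluripotency-associated gene. Tfap2a thus had the least close neighbours.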

How the data were processed

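RNA of 24 libraries (WT and SmcHD1-mutant JB4/EI7HZ2 mESCs, day 7 cells, day 9 cells and NSCs, 3 each, described by the study as biological replicates) was analysed from 1 deposited table. The authors trimmed single-end reads with Trim Galore 0.6.6, aligned them to mm9 with TopHat2 2.1.1, removed ribosomal and X-linked reads and computed FPKM with Cuffdiff; the read totals, the library normalization and the strand setting of the counting are not given in the sources used here. Of 36 FPKM columns 12 matched no sample of this work and were not used.

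Values were tested as log2(FPKM + 1), which understates changes of low genes, in a single limma 3.58.1 fit of 8 groups (R 4.3.3, trend and robust settings, two-sided, Benjamini-Hochberg adjustment) over the genes whose FPKM averaged 1 or more. The fit was tested on simulated data. Depth came from low genes, of whose 31400 values above 0 95.3% were whole multiples of 1 read (tolerance 0.05); single genes were counted in reads at a tolerance of 0.02. Floors cover counting error only. Serbp1, with failed estimates, was left out. Replicate numbers paired WT and KO in mESCs (correlation of deviations 0.141 to 0.435) and NSCs (0.184 to 0.335) but not at day 7 or day 9 (at most 0.0957). The main fit left this pairing out. With the replicate block, KO minus WT calls over all tested genes went from 64 to 98 in mESCs and from 729 to 1145 in NSCs.

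The members and lists were chosen with earlier results of these data known. Beside the members, the text names Smchd1, the 2 tested genes of each list with the largest KO minus WT change, Sox10, Sox9, Tfap2c, Msx1 and Pax7, and the 2 genes most correlated with each tested member; further list members are named after their values were seen, and the values of some list genes are not reported here. Alternatives were a pseudocount of 0.1, no filter, 2 scalings, a fit of the compared groups only, a replicate block and leaving out each library; those of the lists, the folds, the Foxd3 bound and the shares of all genes called were chosen after seeing the data. Upstream sequence was read from NCBIM37, with strand from its annotation, where Tfap2a and Tfap2b carry older names.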

Additional observations from a re-analysis of the deposited data

Results flagged for a closer look

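The KO minus WT difference of 3 members changed between stages by a test of the change itself (limma interaction against mESCs, adjusted over 12105 genes). For Tfap2a it was larger at day 9 by 2.42 ± 0.29 (SE) on the log2 scale (adjusted p = 3.62e-05) and in NSCs by 2.73 ± 0.29 (adjusted p = 2.14e-05). For Pax3 it was larger at day 9 by 3.62 ± 0.51 (adjusted p = 0.000194), and for Ngfr it was more negative at day 9, by -2.24 ± 0.40 (adjusted p = 0.00218). WT and KO libraries did not overlap at the stages named, and the 4 calls passed in 18 of 18 alternatives each. Tfap2a was admitted to the test only through KO, where it is high, so both of its calls rest in part on the difference they test. The contrasts share the mESC libraries, and what they stem from was not tested.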

How the results depend on the processing

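Pax3, Tfap2a and Ngfr at day 9 and Tfap2a in NSCs passed in 12 of 12 alternatives each. Apart from the setting with no filter, these alternatives kept the filter that Tfap2a passed only through KO. Ets1 at day 9 passed in 6 of 12. The count of members called KO minus WT at day 7 was 1 in place of 0 with a pseudocount of 0.1 (Tfap2a, adjusted p = 0.0297) and 1 when only the day 7 libraries were fitted (Ets1, adjusted p = 0.0466), and ranged from 0 to 1 with a library left out. The count for the change of the KO effect from mESCs to day 7 was 1 with a pseudocount of 0.1, 2 with the replicate block, and 0 to 2 with a library left out. Leaving out a library gave 1 to 5 members for WT day 9 against day 7 (1 without WT day 7 replicate 1 or WT day 9 replicate 3, 5 without WT day 9 replicate 1), 3 to 5 for KO day 9 against day 7 (3 without KO day 7 replicate 1) and 3 to 5 for KO NSCs against day 9 (3 without KO NSC replicate 1 or 3). The replicate block changed no KO minus WT call of a member (Tfap2a, KO minus WT in NSC: adjusted p = 6.4e-06); among tested list genes it changed Krt18 in mESCs and Rhob in NSCs, where the pairing it assumes held, and, where it did not, Zic2, Prrx2 and Zfp42 at day 7 and Sox9, Cdh11, Cdh5, Eya1 and Sox2 at day 9 (Cdh11 lost, adjusted p = 0.0503; the others gained). Differences that did not pass changed sign as follows, and the cause was not tested: Foxd3 in mESCs (-0.58 to 0.36 with a library left out) to 0.36 without WT replicate 2, 0.24 without KO replicate 1 and 0.015 without KO replicate 3; Twist1 in mESCs (-0.23 to 0.18) to 0.014 with a pseudocount of 0.1, 0.18 and 0.020 without WT replicates 1 and 2, and 0.012 without KO replicate 3; Pax3 in mESCs (-0.30 to 0.013) to 0.013 without WT replicate 1; Erbb3 at day 7 (-0.31 to 0.011) to 0.011 without WT replicate 1; Ngfr in NSCs (-0.0016 to 0.12) to -0.0016 without KO replicate 2; Tfap2a in KO day 7 against mESCs (-0.14 to 0.11) to -0.14 without mESC replicate 2 and -0.0045 without day 7 replicate 1. Scaling libraries to the same sum shifted the median of all genes by 0.123 to 0.436 in 8 of 10 stage comparisons and moved the share of higher calls at day 9 KO minus WT from 38.6% to 22.7%. With at most 10 reads in a library, a difference of Snai2 between genotypes was not detectable at this depth; FPKM gave no reads for Tfap2a, Tfap2b, Pax3 and Ets1.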
